A study of Ericerus pela with 8 samples.

Results

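The transcripts described here are 22 unigenes, assembled transcript fragments, of the Chinese white wax scale Ericerus pela whose deposited best protein match is a ribosomal protein of a related or well-studied insect. A unigene was taken in when its match text named a ribosomal protein, with neither "mitochondrial" nor "kinase" in it, when the matched organism belonged to 1 of 10 listed insect genera, and when it had at least 10 reads summed over all libraries. They are 22 of 147509 unigenes with reads, and 22 of the 177 unigenes whose match met the name rule in any organism. Of 26 matches in the listed genera, 4 fell under the read minimum. The 22 members carry 18 protein names, 11 of the large and 11 of the small subunit. Of the members, 11 were matched to Maconellicoccus, a mealybug and so a scale insect itself, 3 to the louse Pediculus, 3 to the beetle Tribolium, 2 to the aphid Acyrthosiphon, 2 to the mosquito Culex and 1 to the moth Spodoptera.

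The study sequenced RNA of both sexes of this scale insect over development. The 8 groups are female larvae of the first instar (FF) and second instar (FS), female adults of an early (FA1), middle (FA2) and late (FA3) stage, male larvae of the first instar (MF) and second instar (MS), and male adults (MA). Each group is 1 library, and no strain, treatment, host plant, age in days or number of insects per library is given in the labels. RNA came from washed and homogenised insects, so fewer cells of a type and less RNA per cell cannot be told apart.

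The cytosolic ribosome joins a large subunit, which forms peptide bonds, to a small subunit, which reads the messenger RNA. Most of its proteins are needed in near-equal numbers, and their transcripts are among the most abundant in growing animal cells. In insects, feeding acts through the TOR pathway on ribosome production, and the nurse cells of insect ovaries are known for high ribosome output.

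Library totals ran from 1.46 M reads (FA2) to 2.30 M reads (MF), and MA with 1.84 M reads was not among the extremes. Between 88598 and 112873 unigenes had reads in a library, 94524 of them in MA. Levels are given as CPM, reads scaled to a common library total. A count of 0 allows a level of up to 1.30 to 2.05 CPM, the level of 3 reads in each library. With 1 library per group, differences between 2 libraries have no replicate check and no p-value. Their intervals are exact conditional binomial intervals at 95%, and they cover counting error alone, since reads without molecular identifiers are not independent molecules.

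The name of 2 members goes against the label of a cytosolic ribosome. The match "28S ribosomal protein S35" (Unigene128126_FOB) is the name of a protein of the mitochondrial small subunit, which the rule did not remove because the word mitochondrial is missing from it. The match "30S ribosomal protein S8" (Unigene30367_FOB) carries the subunit name used for bacteria and organelles. The other 20 names are those of cytosolic proteins, though the gene ontology terms deposited for the 2 S3a members also name other functions. Members were 150 to 881 bases long with a median of 236, so most are pieces of a transcript.

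Per length, 2 members stood above the rest. The level per length (RPKM, reads scaled by library total and unigene length) averaged 1365 over the 8 libraries for L37 (Unigene12684_FOB), a small zinc-binding protein of the large subunit, and 890 for the ubiquitin fusion of S30e (Unigene57963_FOB), a small-subunit protein that is made joined to a ubiquitin-like domain and cut free. L13A (Unigene71145_FOB) followed with a mean RPKM of 313, S9 (Unigene37030_FOB), which takes part in decoding, with 298, L32 (Unigene96873_FOB) with 265 and L24e (Unigene104899_FOB), which helps bridge the subunits, with 221. At the low end among members with at least 100 reads in all were S11 (Unigene154154_FOB) at a mean RPKM of 10.2, P1 (Unigene152564_FOB) at 11.1 and the S3a unigene of 881 bases (Unigene155039_FOB) at 28.6. L37 alone held 34.7% of the 15104 member reads and was the unigene of most reads in the whole FS library (rank 1) and of rank 2 in MF. In MA its rank was 7707.

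**Figure D1:**
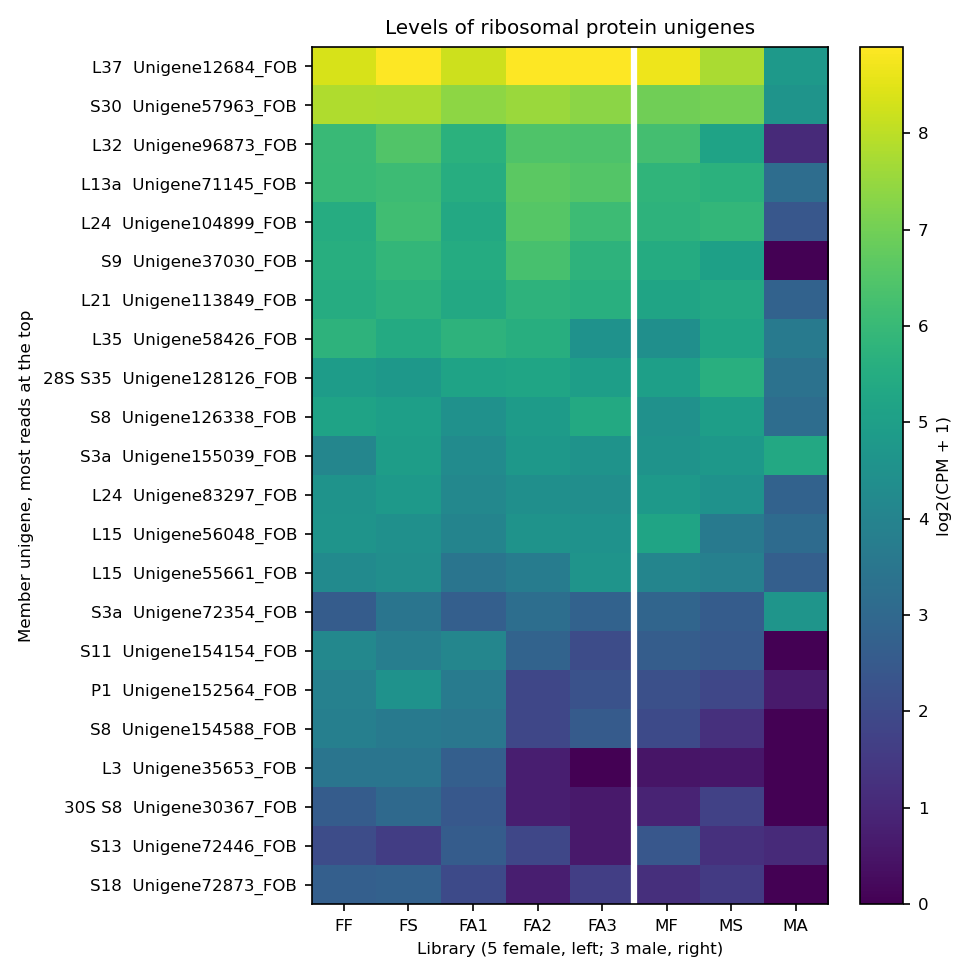
Level of each of the 22 members as log2(CPM + 1) in the 5 female libraries (left of the white line) and the 3 male libraries (right), members ordered by reads. The MA column is the darkest for 18 members, the 2 S3a rows are brightest in MA, and 6 rows in the lower part are brighter in FF, FS and FA1 than in the other libraries, which the S13e row is not.

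Adult males held the lowest levels of most ribosomal protein transcripts. Of the 22 members, 18 were lower in MA than in every other library, among them both subunits, and 2 were higher in MA than in every other library. Among the 19 members with at least 20 reads in some library, 16 were lowest in MA, against 40.1% of all unigenes with that many reads, and 2 were highest in MA, against 17.7%. The summed level of the members was 1092 CPM in FF, 1305 in FS, 915 in FA1, 1290.5 in FA2 and 1181 in FA3, and 991 in MF, 768 in MS and 183 in MA. The summed level was 4.998 times as high in FA1 as in MA (95% interval 4.45 to 5.63), 7.05 times in FA2 (6.27 to 7.94) and 6.45 times in FA3 (5.75 to 7.26). With TMM scaling, which corrects for the make-up of a library, these ratios were 3.90, 5.46 and 5.65. Without L37 they were 3.96, 5.21 and 4.53.

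The most abundant members show the pattern one by one. L37 (Unigene12684_FOB) had 330 CPM in FF, 466 in FS, 295 in FA1, 476 in FA2 and 473 in FA3, and 406 in MF, 214 in MS and 26.6 in MA. Its MA level lay far below the other 7, which spanned 1.15 in log2(CPM + 1). The ratio to MA was 11.1 for FA1 (8.27 to 15.2), 17.9 for FA2 (13.4 to 24.4) and 17.8 for FA3 (13.3 to 24.2).

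The S30e ubiquitin fusion (Unigene57963_FOB) had 228 CPM in FF, 224 in FS, 167 in FA1, 188 in FA2 and 162 in FA3, and 123 in MF, 131 in MS and 23.4 in MA. Every male library was below every female library. L21 (Unigene113849_FOB), a large-subunit protein, was the other member with no overlap between the sexes, at 45.0, 51.6, 40.8, 52.7 and 48.3 CPM in FF, FS, FA1, FA2 and FA3, and 35.6, 39.9 and 5.98 CPM in MF, MS and MA. These 2 of the 19 members with at least 20 reads stand against 1.38% of all such unigenes.

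S9 (Unigene37030_FOB) and L32 (Unigene96873_FOB) had the highest ratios of female adults to MA. S9 had 87, 115 and 98 reads in FA1, FA2 and FA3, and 0 in MA. Against a floor of 3 reads per library its level was at least 26.9-fold higher in FA1, at least 48.3-fold higher in FA2 and at least 32.3-fold higher in FA3 than in MA. It also had 104 and 113 reads in FF and FS, and 101 and 70 in MF and MS, so MA alone was empty. L32 had 101, 125 and 158 reads in FA1, FA2 and FA3, and 2 in MA, with ratios of 46.8 (12.6 to 392), 78.8 (21.4 to 658) and 78.0 (21.2 to 650). Both range widely because of MA: the range of log2(CPM + 1) over the 8 libraries was 6.32 for S9 and 5.41 for L32, and over the 7 libraries without MA it was 1.27 and 1.32.

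L13A (Unigene71145_FOB) had 45.3, 99.3 and 90.1 CPM in FA1, FA2 and FA3, and 8.15 CPM in MA. L24e (Unigene104899_FOB) had 40.3, 91.7 and 67.0 CPM in FA1, FA2 and FA3, and 4.35 CPM in MA. Both were highest in FA2 and lowest in MA among all 8 libraries. L35e (Unigene58426_FOB), which lies beside the tunnel through which the new chain leaves, differed less, with 52.8, 47.2 and 21.99 CPM in FA1, FA2 and FA3, and 11.4 CPM in MA. Its FA3 to MA ratio was 1.93 (1.11 to 3.43).

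A ratio between 2 libraries was called at 2-fold when log2 of the ratio of CPM + 1 was at least 1 in size and either library had at least 20 reads. In FA1 over MA 14 of 18 members were called higher and 2 lower, against 36.6% and 18.5% of all unigenes. In FA2 over MA 12 of 14 were called higher and 1 lower, against 37.3% and 27.2%, and in FA3 over MA 12 of 15 were called higher and 1 lower, against 41.2% and 26.2%. In all 3 together 10 of 14 were called higher and 1 lower, against 22.4% and 19.0%. Members that had few reads in MA passed the minimum through their female reads, so these counts leave out members low in both libraries. With no minimum, 18, 16 and 16 members were higher and 2, 1 and 1 lower, out of 22, 22 and 21 with reads in either library. The median log2 ratio of the members was 2.46, 2.45 and 2.23 for FA1, FA2 and FA3 over MA, and 0.52, 0.37 and 0.62 over all unigenes. TMM scaling moved the median of all unigenes to 0.19, 0.02 and 0.44, and that of the members to 2.14, 2.10 and 2.07. At 4-fold, 11 of 18, 7 of 14 and 8 of 15 members were called higher in FA1, FA2 and FA3 over MA and 0 lower, against 16.8%, 18.9% and 20.7% of all unigenes higher and 9.31%, 16.4% and 16.9% lower. In all 3 together 7 of 14 were called higher and 0 lower at 4-fold, against 7.8% and 9.34%.

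**Figure D2:**
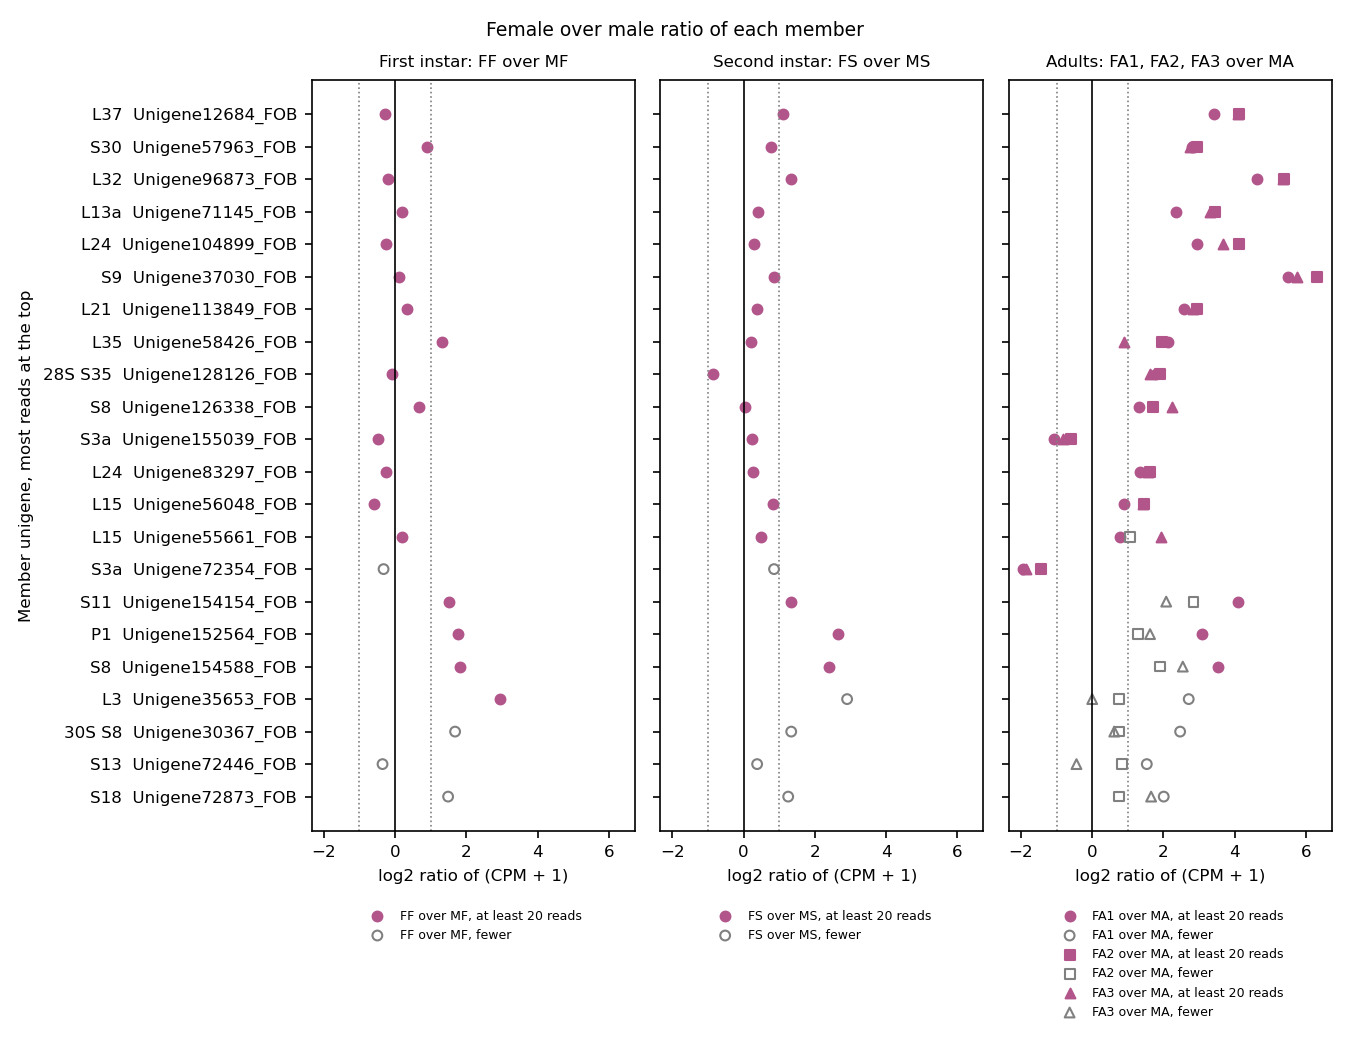
Log2 ratio of (CPM + 1), female over male, for each of the 22 members at the first instar, the second instar and in adults, with FA1 as circles, FA2 as squares and FA3 as triangles over MA. Filled points have at least 20 reads in either library, open points fewer, and dotted lines mark 2-fold. Larval points lie mostly between the dotted lines, adult points mostly right of them, and both S3a rows lie left of 0 in adults.

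The 2 members matched to S3a, a small-subunit protein near the site where messenger RNA leaves, went the other way. Their deposited gene ontology terms, which list functions, went beyond a ribosomal protein. Unigene155039_FOB carried hydrolase activity and no term naming the ribosome. Unigene72354_FOB carried ribonucleoprotein complex, but also thiolester hydrolase activity, tubulin binding and defense response. Whether either unigene encodes S3a was not tested. Unigene155039_FOB (881 bases) had 15.9 CPM in FF, 30.2 in FS, 18.6 in FA1, 26.0 in FA2 and 22.5 in FA3, and 22.6 in MF, 25.7 in MS and 40.2 in MA. Unigene72354_FOB (193 bases) had 5.0, 9.91, 5.54, 8.22 and 5.90 CPM in FF, FS, FA1, FA2 and FA3, and 6.51, 5.04 and 23.9 CPM in MF, MS and MA. In both unigenes MA was the highest of the 8 libraries.

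The ratio to MA for the longer S3a unigene was 0.463 in FA1 (0.303 to 0.696), 0.647 in FA2 (0.426 to 0.970) and 0.560 in FA3 (0.374 to 0.829). For the shorter one it was 0.232 (0.108 to 0.456), 0.344 (0.165 to 0.662) and 0.247 (0.115 to 0.486). S3a thereby made up 21.96% and 13.1% of the member reads in MA, one value per unigene, against 1.46% to 3.34% and 0.458% to 0.759% in the other libraries. Reads of MA covered 84.5% of the longer unigene and 97.9% of the shorter one, so they were spread over both. Another S3a unigene (Unigene155908_FOB, 999 bases), which is not a member because its match names no organism, had 71, 62, 59, 5 and 21 reads in FF, FS, FA1, FA2 and FA3, 17 and 16 in MF and MS, and 0 in MA.

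Both subunits were lower in MA. Large-subunit members summed to 584, 911 and 854 CPM in FA1, FA2 and FA3, and to 77.1 CPM in MA. Small-subunit members summed to 331, 379 and 327 CPM in FA1, FA2 and FA3, and to 106 CPM in MA, where S3a supplied 118 of their 195 reads. The female to male ratio of these sums was 11.8 (9.93 to 14.2) for the large subunit and 3.58 (3.04 to 4.24) for the small subunit in FA2.

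The larval sexes differed less. At the first instar the members summed to 1092 CPM in FF and 991 CPM in MF, a ratio of 1.10 (1.04 to 1.17). At the second instar they summed to 1305 CPM in FS and 768 CPM in MS, a ratio of 1.70 (1.60 to 1.81). Without L37 the ratios were 1.30 (1.21 to 1.40) and 1.52 (1.41 to 1.64). Of 18 members tested at the first instar 5 were called higher and 0 lower in FF, against 11.4% and 8.27% of all unigenes. Of 17 tested at the second instar 5 were called higher and 0 lower in FS, against 10.4% and 9.50%. The median log2 ratio of the members was 0.19 at the first and 0.50 at the second instar, and that of all unigenes -0.11 and -0.05. At 4-fold 1 of 18 was called higher in FF and 2 of 17 in FS, with 0 lower at either instar, against 2.79% and 3.67% of all unigenes higher and 0.766% and 2.64% lower.

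The 5 members called higher in FF were L3, the mosquito-matched S8, P1, S11 and L35e. L35e (Unigene58426_FOB) had 115 reads in FF and 47 in MF, a ratio of 2.56 (1.81 to 3.68). The other 4 are long unigenes of few reads, described next. They reached the minimum in FF but not in MF, so they were tested only through the library where they were high. At the second instar L37 had 893 reads in FS and 468 in MS, a ratio of 2.17 (1.94 to 2.43), and L32 had 168 in FS and 75 in MS, a ratio of 2.55 (1.93 to 3.39). The other 3 called members were again P1, S8 and S11, which reached the minimum in FS but not in MS. In no comparison of larvae was a member called lower in females.

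A group of 5 members had a profile of its own. S11 (Unigene154154_FOB), P1 (Unigene152564_FOB), the mosquito-matched 40S S8 (Unigene154588_FOB), L3 (Unigene35653_FOB) and the 30S S8 (Unigene30367_FOB) are 639 to 836 bases long, and all 5 were higher in each of FF, FS and FA1 than in every other library. With S18e (Unigene72873_FOB, 193 bases) 6 of the 22 members had this order. Among the 19 with at least 20 reads it was 4, against 4.59% of all such unigenes. These 4 reached 20 reads only in FF, FS or FA1, the libraries in which this order is high. The minimum let them in through those libraries, so the comparison with 4.59% cannot show an excess of this order among the members. The group was set apart by its length after its values had been seen, so its counts are a description.

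P1, an acidic protein of the stalk to which elongation factors bind, had 31, 43, 24, 4 and 7 reads in FF, FS, FA1, FA2 and FA3, and 8, 6 and 1 in MF, MS and MA. Its level was 4.06 times as high in FF as in MF (1.82 to 10.2) and 8.16 times as high in FS as in MS (3.46 to 23.4). S8 (Unigene154588_FOB) had 29, 22, 21, 4 and 9 reads in the female libraries in the same order, and 7, 3 and 0 in the male ones, with ratios of 4.34 (1.86 to 11.7) at the first and 8.34 (2.51 to 43.5) at the second instar. S11 had 37, 25, 32, 9 and 6 reads in females, and 12, 10 and 0 in males, with ratios of 3.23 (1.65 to 6.80) and 2.84 (1.32 to 6.64). For these 3 unigenes the female larvae and FA1 were high, and FA2, FA3 and the male larvae low.

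L3 (Unigene35653_FOB), whose protein reaches towards the peptide-forming centre, had 22, 19, 11, 1 and 0 reads in FF, FS, FA1, FA2 and FA3, and 1, 1 and 0 in MF, MS and MA. The FF to MF ratio was 23.0 with a wide interval (3.72 to 951). Reads covered 74.3% of this unigene in FF and 7.24% in each of FA2, MF and MS. Another L3 unigene (Unigene106617_FOB, 248 bases), matched to the ant Camponotus and so not a member, had 374, 449, 241, 380 and 487 reads in FF, FS, FA1, FA2 and FA3, and 469, 261 and 40 in MF, MS and MA. That unigene was low in MA alone, like most members, while the member L3 was low in 5 libraries.

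Most ribosomal protein unigenes with no arthropod match moved with these 5 members. The 5 summed to 59.1, 64.1, 48.8, 13 and 12.3 CPM in FF, FS, FA1, FA2 and FA3, and to 13, 11.5 and 0.543 CPM in MF, MS and MA. The 58 ribosomal protein unigenes with no arthropod match include matches to fish, frog, mammal and mollusc proteins. A match that names no organism was counted there too, such as the S3a unigene of 999 bases (Unigene155908_FOB), with 251 reads. The 58 summed to 325, 377, 294, 103 and 91.7 CPM in the female libraries in that order, and to 111, 104 and 6.52 CPM in MF, MS and MA. Of the 38 of these 58 with at least 10 reads, 31 had each of FF, FS and FA1 above every other library, against 5.51% of all unigenes with at least 10 reads. In MA 35 of the 38 had 0 reads, against 16% of all such unigenes. The unigene of most reads among the 58, an S8 (Unigene56038_FOB) with 535 reads, was low in MA alone. It had 44.1, 37.5, 39.3, 38.3 and 39.7 CPM in females, and 32.1, 35.7 and 3.26 CPM in MF, MS and MA. Whether the 5 members and the unigenes with no arthropod match come from the scale insect or from another organism in the libraries was not tested. Without the 5, the members summed to 1033, 1241, 866, 1278 and 1169 CPM in females and to 978, 756 and 183 CPM in males, and the first-instar ratio of sums was 1.06 (0.996 to 1.12).

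**Figure D3:**
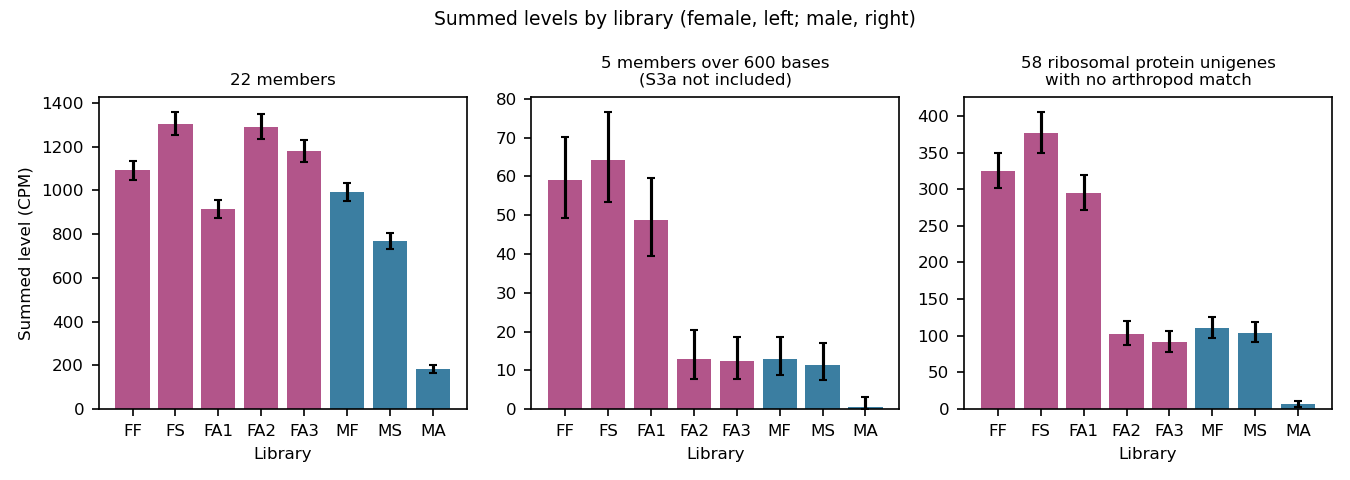
Summed level in CPM by library for all 22 members (left), the 5 members over 600 bases other than S3a (middle) and 58 ribosomal protein unigenes with no arthropod match (right), female libraries left and male libraries right in each panel. Bars start at 0 and whiskers are exact Poisson intervals at 95% for counting error. The left panel is low in MA alone, at 183 CPM, and the middle and right panels share high bars in FF, FS and FA1 and low bars in FA2, FA3 and all males.

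Through female development the sum of the members went up at the second instar, down in early adults and up again in middle-stage adults. It was 1.20 times as high in FS as in FF (1.13 to 1.27), 0.701 times in FA1 relative to FS (0.660 to 0.745), 1.41 times in FA2 relative to FA1 (1.32 to 1.505) and 0.915 times in FA3 relative to FA2 (0.860 to 0.974). With TMM scaling the last ratio was reversed, at 1.04. No member was called at 2-fold in FS over FF or FA1 over FS, of 18 and 17 tested, against 7.37% higher and 8.67% lower, and 5.76% higher and 2.87% lower, of all unigenes. In FA2 over FA1 2 of 17 were called higher and 3 lower, against 10.1% and 18.7% of all unigenes. No member was called at 4-fold in any of the 4 female steps, against 1.16% higher and 1.43% lower of all unigenes in FS over FF, 1.23% and 0.119% in FA1 over FS, 2.77% and 7.6% in FA2 over FA1 and 3.89% and 4.47% in FA3 over FA2.

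The 2 higher in FA2 than in FA1 were L24e (Unigene104899_FOB), with a ratio of 2.28 (1.71 to 3.04), and L13A (Unigene71145_FOB), with 2.19 (1.67 to 2.88). The 3 lower were P1, S8 (Unigene154588_FOB) and S11, by 4.41-fold (1.52 to 17.5), 3.86-fold (1.30 to 15.5) and 2.61-fold (1.22 to 6.23). All 3 reached the minimum of reads in FA1 but not in FA2, so they were tested only through the library where they were high. In FA3 over FA2 L35e (Unigene58426_FOB) was lower by 2.15-fold (1.44 to 3.24) and was the 1 member called of 14, against 13% higher and 11.8% lower of all unigenes. L15 (Unigene55661_FOB) had 44 reads in FA3 and 18 in FA2, a ratio of 1.91 (1.08 to 3.52), which the rule did not call.

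In males the change came with the adult. The sum was 0.775 times as high in MS as in MF (0.727 to 0.825) and 4.19-fold lower in MA than in MS (3.73 to 4.73), or 3.19-fold lower with TMM scaling. In MS over MF 0 of 14 members were called higher and 2 lower, against 12.9% and 13.9% of all unigenes: L15 (Unigene56048_FOB) by 3.11-fold (1.97 to 5.08) and L32 by 2.15-fold (1.63 to 2.86). In MA over MS 1 of 15 was called higher and 12 lower, against 18.8% and 39.9%. At 4-fold 0 of 14 were called in MS over MF, against 3.95% higher and 4.26% lower of all unigenes, and 1 of 15 was called higher and 8 lower in MA over MS, against 10.1% and 17.4%. L32 had 2 reads in MA and 75 in MS and was 31.6-fold lower (8.46 to 266). S9 had 0 reads in MA and 70 in MS and was at least 19.7-fold lower. The shorter S3a unigene had 44 reads in MA and 11 in MS and was 4.74 times as high in MA (2.41 to 10.2).

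Protein names with more than 1 member unigene let the profiles of a protein be set side by side. The 2 unigenes of S3a shared the high MA level. L24, matched as L24e (Unigene104899_FOB) and as L24 (Unigene83297_FOB), was lowest in MA in both, at 4.35 and 5.98 CPM. Their female adult levels differed in course, with 40.3, 91.7 and 67.0 CPM in FA1, FA2 and FA3 for the L24e unigene, and 16.6, 20.5 and 19.8 CPM for the other. L15, a protein deep in the large subunit, had 15.1, 22.6 and 21.99 CPM in FA1, FA2 and FA3, and 7.61 CPM in MA, in Unigene56048_FOB. In Unigene55661_FOB it had 10.1, 12.3 and 23.6 CPM in FA1, FA2 and FA3, and 5.43 CPM in MA. The L15 unigenes parted in male larvae, where Unigene56048_FOB had 11.5 CPM in MS and 35.6 in MF, and Unigene55661_FOB had 13.7 CPM in MS and 15.6 in MF. The 2 unigenes named S8 parted most: Unigene126338_FOB had 35, 31.3, 21.6, 28.8 and 41.8 CPM in females and 21.7, 30.7 and 8.15 CPM in males, with FA3 the highest, while Unigene154588_FOB had 13.2, 11.5, 10.6, 2.74 and 4.83 CPM in females and 3.04, 1.37 and 0 CPM in males. The counts are of uniquely mapped reads, so reads that fit near-identical copies alike may be missing from them. How many are missing cannot be seen, so values of unigenes with 1 name are uncertain to that extent.

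The members not yet described were the 28S S35 unigene and a pair of low ones. The 28S S35 unigene (Unigene128126_FOB) had 29.1, 26.1, 34.7, 36.97 and 30.6 CPM in FF, FS, FA1, FA2 and FA3, and 31.3, 48.1 and 9.23 CPM in MF, MS and MA. It was highest in MS, with an FS to MS ratio of 0.542 (0.379 to 0.766). The smallest ranges of log2(CPM + 1) over all 8 libraries among members with at least 100 reads were 1.28 for the longer S3a unigene, 1.94 for L15 (Unigene55661_FOB) and 2.02 for L24 (Unigene83297_FOB), and the largest were those of S9 and L32, given above, and 4.16 for S11. The lowest members, S18e (Unigene72873_FOB) and S13e (Unigene72446_FOB), had 41 reads each. S18e had 12, 11, 6, 1 and 4 reads in females and 3, 4 and 0 in males, and S13e had 7, 4, 10, 4 and 1 in females and 10, 3 and 2 in males, too few for a call in any comparison. Without MA their levels still spanned 1.9996 and 1.97 in log2(CPM + 1). Just outside the minimum of 10 reads were S15e (Unigene7865_FOB) with 7 reads and L35 (Unigene114674_FOB) with 6. The other matches left out were S2 with 5 reads and S11 with 1.

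Ribosomal proteins matched to other arthropod genera, which the rule leaves out, had the same low in MA. The 93 unigenes summed to 942, 970.0, 733, 1195 and 906 CPM in FF, FS, FA1, FA2 and FA3, and to 818, 693 and 197 CPM in MF, MS and MA. Of the 12 with at least 100 reads 11 were lowest in MA, against 44.2% of all unigenes with that many reads. Among these 11, S27A (Unigene118637_FOB) was hardly lower in MA, with 59.75 CPM there, 60.07 in FA3 and 73.8 in MF. The remaining 1, an L7 unigene (Unigene154881_FOB) with 59, 37 and 33 reads in FA1, FA2 and FA3 and 94 in MA, was highest there.

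The rest of the translation machinery was lower in MA as well. In all 3 female adult stages over MA, 7 of 12 elongation factor unigenes tested were called higher and 0 lower, with a median log2 ratio of 3.06. For initiation factors it was 43 of 75 and 0, with a median of 1.64, for aminoacyl-tRNA synthetases, which load amino acids on their tRNAs, 50 of 66 and 0, with 1.70, and for ribosome biogenesis and RNA polymerase I, which makes ribosomal RNA, 35 of 49 and 0, with 1.95. Mitochondrial ribosomal proteins had 14 of 29 higher and 0 lower, with a median of 1.43, release factors 3 of 6 and 0, with 1.43, and the proteasome, which breaks proteins down, 21 of 47 and 0, with 1.27. The members had 10 of 14 higher, 1 lower and a median of 2.37, and all unigenes 22.4% higher, 19.0% lower and a median of 0.06.

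The list of TOR and S6 kinase signalling, upstream of ribosome production, had 2 of 28 higher and 6 lower, with a median log2 ratio of 0.32. Over all unigenes 22.4% were higher and 19.0% lower, so the share of the list called lower was near the background. Matches naming an insulin receptor were also taken into this list. The list summed to 638, 715 and 759 CPM in FA1, FA2 and FA3, and 770.3 CPM in MA. Its unigene of most reads, an insulin receptor tyrosine kinase substrate (Unigene127108_FOB), had 92, 25 and 38 reads, and 205 in MA. It was taken in by the words insulin receptor alone, and whether it acts in TOR signalling was not tested. It supplied 205 of the 1418 reads of the list in MA. The next, a Rheb-like protein (Unigene146041_FOB), had 76, 60 and 75 reads, and 78 in MA. The elongation factor 2 unigene of most reads (Unigene28370_FOB) had 322, 400 and 511 reads in FA1, FA2 and FA3, and 50 in MA. Initiation factor 1A (Unigene132880_FOB) had 375, 298 and 318 reads in FA1, FA2 and FA3, and 209 in MA. An initiation factor 3 subunit (Unigene130179_FOB) had 184, 253 and 253 reads, and 26 in MA. The largest subunit of RNA polymerase I (Unigene157500_FOB) had 156, 115 and 190 reads, and 28 in MA.

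**Figure D4:**
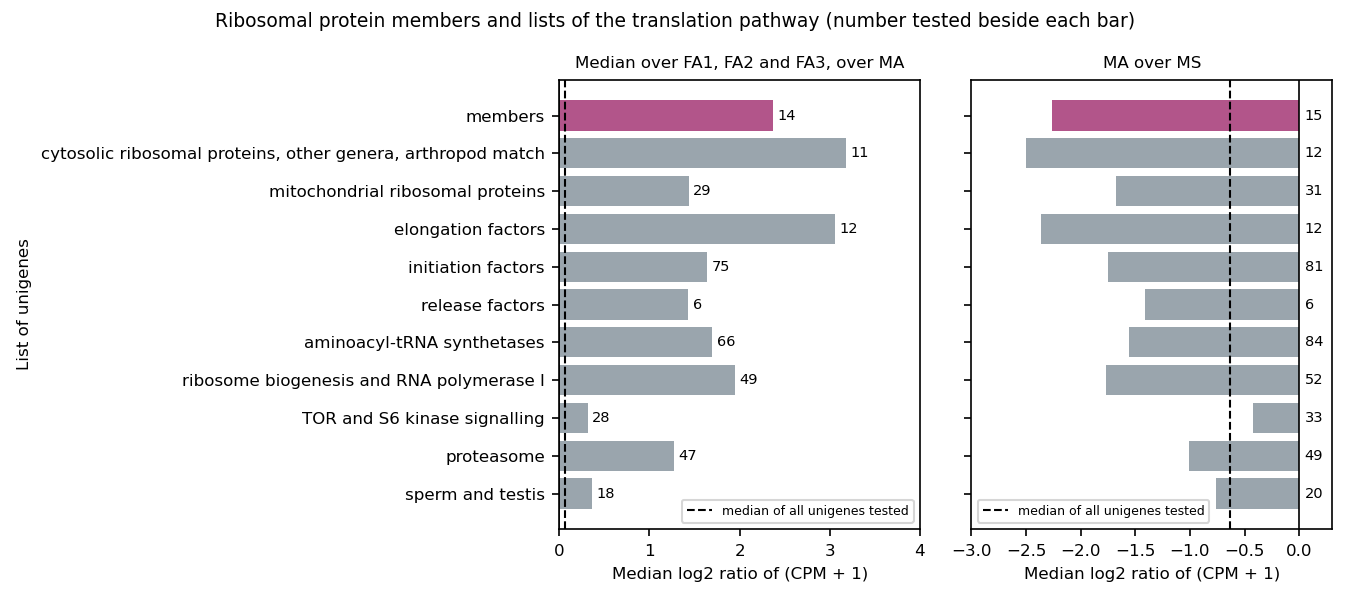
Median log2 ratio of (CPM + 1) for the members (coloured) and for lists of other genes with at least 5 unigenes tested (grey), for the median over FA1, FA2 and FA3 over MA (left) and for MA over MS (right), with the number of unigenes tested beside each bar. The dashed line is the median of all unigenes tested, 0.06 on the left and -0.63 on the right. The members reach 2.37 and -2.26, and TOR and S6 kinase signalling 0.32 and -0.42.

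Between larvae of the 2 sexes the shares of all unigenes called were 11.4% higher and 8.27% lower in FF over MF, and 10.4% higher and 9.50% lower in FS over MS. At the first instar 2 of 14 elongation factor unigenes were called higher in FF and 0 lower, and 0 of 32 TOR and S6 kinase unigenes were called higher and 5 lower. Of 83 initiation factor unigenes 1 was higher and 2 lower, of 88 synthetases 0 and 3, of 55 biogenesis unigenes 0 and 1, and of 51 proteasome unigenes 0 and 1, while none of 31 mitochondrial ribosomal proteins or 7 release factors was called. At the second instar 4 of 16 elongation factor unigenes were called higher in FS and 1 lower, and 2 of 32 TOR and S6 kinase unigenes higher and 1 lower. Of 83 initiation factor unigenes 1 was higher and 1 lower, of 86 synthetases 4 and 1, of 54 biogenesis unigenes 1 and 2, and of 51 proteasome unigenes 1 and 0, and again none of 31 mitochondrial ribosomal proteins or 7 release factors was called.

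Unigenes whose match text names sperm, testis, egg or yolk were summed beside the members. Unigenes whose match names sperm or testis summed to 535, 623 and 639.8 CPM in FA1, FA2 and FA3, and to 872 CPM in MA, with 589.8 to 744 CPM in larvae of both sexes. Of 18 tested, 4 were higher in all 3 female adult stages and 1 was lower, against 22.4% and 19.0% of all unigenes, so the share called higher was near the background. Egg and yolk unigenes summed to 179.7, 275 and 1819.7 CPM in FA1, FA2 and FA3, and to 88.0 CPM in MA. In larvae they summed to 124 CPM in FF, 198 in FS, 231 in MF and 383 in MS, so male larvae were above female larvae. Vitellogenin-5 (Unigene151183_FOB) had 34.7, 51.3 and 137 CPM in FA1, FA2 and FA3, and 108 in MS. The vitellogenin receptor (Unigene157486_FOB), which takes yolk protein into the oocyte, had 2, 19 and 1087 reads in FA1, FA2 and FA3, and 1 in MA. Member sums in FA1, FA2 and FA3 were 915, 1290.5 and 1181 CPM, and 892, 1247 and 1291 with TMM scaling. The part of tissue make-up in the member levels was not tested.

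A test over all 8 libraries was made with edgeR's quasi-likelihood method, with stage and sex as terms and Benjamini-Hochberg adjustment over 51155 unigenes. It has 4 residual degrees of freedom, and its error comes from differences between FA1, FA2 and FA3 and from stages that depart from a common sex difference. With edgeR none of the 20 members tested passed an adjusted p of 0.05 for sex, for second over first instar or for adults over larvae, nor did any other unigene. At an unadjusted p under 0.05 it was 5, 0 and 1 members, against 3.79%, 1.16% and 3.38% of all unigenes. DESeq2 called 0 of 22 members in each term, with 8, 0 and 0 unadjusted, against 4.64%, 1.47% and 3.69% of all unigenes. Over all 94127 unigenes DESeq2 called 91 higher and 228 lower for sex, 57 and 128 for second over first instar, and 435 and 5 for adults over larvae. With edgeR, P1 (Unigene152564_FOB) had the lowest sex p, at a log2 difference of 2.72 ± 0.72 (SE worked back from the F statistic) and an adjusted p of 0.937.

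A model with its own sex term for adults, chosen after seeing the data, left 61335 unigenes and 3 residual degrees of freedom. It was added once MA had been seen to be low, and it sets FA1, FA2 and FA3 against the single library MA. Its spread comes from the differences between FA1, FA2 and FA3 and between the larval sex effects, so MA is assumed to vary like the other groups, and its p-values and SEs hold only under that assumption. In it 6 of 21 members were higher in female than in male adults, against 1.03% of all unigenes higher and 1.64% lower. By edgeR's quasi-likelihood test the adjusted p was 0.0217 for S9 (Unigene37030_FOB), 0.0355 for L32 (Unigene96873_FOB), 0.0417 for the S30e fusion (Unigene57963_FOB), 0.0433 for L21 (Unigene113849_FOB), 0.0475 for L37 (Unigene12684_FOB) and 0.0499 for L24e (Unigene104899_FOB). The log2 differences were 6.003 ± 0.94 for L32, 2.88 ± 0.49 for the S30e fusion, 2.97 ± 0.52 for L21, 3.96 ± 0.73 for L37 and 3.91 ± 0.74 for L24e (SE), and for S9, with no read in MA, no fitted size is given. All 6 were higher in 3 of 3 female adult libraries than in MA. With TMM scaling 2 of these 6 passed, S9 and L32, and no other member, against 0.662% of all unigenes higher and 2.37% lower. Without FF, FS, FA2, MF or MS no call was left, for the members or for any other unigene. The median log2 difference of the members was then 3.25, 2.97, 2.96, 3.25 and 3.25 in that order. Over all unigenes it was 0.66, 0.65, 0.64, 0.65 and 0.65. Without MA the term could not be fitted. Without FA1 7 members were higher, against 7.36% of all unigenes higher and 6.57% lower, and without FA3 6, against 1.63% and 1.95%. The all-unigene median of this term was 0.65, and 0.35 with TMM scaling. With every library in, no unigene of the whole set passed for sex in larvae or for the difference between the adult and the larval sex effect. In larvae 0 of 21 members passed for sex, with 3 at an unadjusted p under 0.05, against 1.57% of all unigenes. The difference between the adult and the larval sex effect passed for 0 members, with 10 of 21 unadjusted, against 19.8% of all unigenes. Without FA1 it passed for 6 members, all of them higher, against 3.58% of all unigenes higher and 3.42% lower. As MA is 1 library, its departure and that of male adults cannot be told apart.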

How the data were processed

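Whole-insect RNA was sequenced in 8 libraries, 1 per group. Per the labels' protocols, TRIzol was used to extract total RNA, and libraries followed standard Illumina steps. Per the file headers, the deposited tables give for each unigene its uniquely mapped read count, RPKM and the percent of its length covered by reads. They also give its length, gene ontology terms and best protein match. For the aligner, the assembler and the database, name and version are not given here. Recomputed RPKM differed from the deposited RPKM by at most 4.07e-06. Unigenes not listed in a library were taken as 0.

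Counts were joined by unigene, and CPM used the header total. The members and the lists, which are words searched in the match text, were chosen with earlier results of these data known. Named genes were set by rule: the 6 highest and 3 lowest members per length, the 2 highest and 2 lowest ratios per comparison among called members, up to 5 per tested term, proteins with several unigenes, the 3 widest and 3 narrowest ranges, members beside the 10-read minimum, the ubiquitin fusion, stalk, S6 and L3 members (S6 had none), and up to 2 unigenes per list. The S3a unigene outside the members, the other L3 unigene, L7, S27A, Vitellogenin-5 and the polymerase subunit were named after their values were seen.

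Tests used edgeR 4.0.16 (filterByExpr) and DESeq2 1.42.0 as an alternative, with intervals from scipy 1.17.1. The quasi-likelihood test gives no SE. Each SE printed is the size of the log2 difference divided by the square root of its F statistic. Scripts were tested on simulated data. TMM factors ran from 0.801 for MA to 1.07. Alternatives were TMM, DESeq2 size factors, 0.25 or 5 CPM added, other read minimums, 4-fold, sums per protein name, and leaving out each library.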

Additional observations from a re-analysis of the deposited data

Results flagged for a closer look

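For 3 members the female to male ratio lay below 1 in some larvae and above 1 in adults, with intervals that exclude 1 on both sides. L37 (Unigene12684_FOB) had a ratio of 0.813 at the first instar, 2.17 at the second, and 11.1, 17.9 and 17.8 for FA1, FA2 and FA3 over MA. The 28S S35 unigene (Unigene128126_FOB) had 0.542 at the second instar and 3.76, 4.003 and 3.31 in adults. L15 (Unigene56048_FOB) had 0.651 at the first instar, 1.82 at the second, and 1.99, 2.97 and 2.89 in adults. Between single libraries these differences were not tested. In the edgeR quasi-likelihood test of the adult less the mean larval sex effect, chosen after seeing the data, the log2 difference was 3.55 with an adjusted p of 0.132 for L37, 2.37 with 0.149 for 28S S35, and for L15 the adjusted p was 0.414.

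Among matches left out for low reads, S15e (Unigene7865_FOB) had 5 reads and L35 (Unigene114674_FOB) 4 reads in FA2, each above the limit of 3 reads that a count of 0 allows. Each had 2 reads in MS and 0 in the other 6 libraries.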

How the results depend on the processing

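The ratio of summed member levels in FA3 over FA2 was reversed by TMM scaling, at 1.04 against 0.915 (0.860 to 0.974) with the header total, and the median log2 ratio of that comparison changed sign too. The median of MS over MF, -0.032, was 0.033 with 1 value per protein name. Under the alternatives run, no other ratio of sums whose interval excluded 1 was reversed. Counts called at 2-fold moved with the minimum of reads and the fold. The counts that follow are given without the number tested, the direction or the share of all unigenes at the same setting. They describe the setting alone and cannot be set against the background, except at 4-fold, where those shares are given above. With at least 100 reads in either library they were 1 (FF over MF), 2 (FS over MS), 4, 6 and 5 (FA1, FA2 and FA3 over MA), 3 (all 3 over MA), 2 (FA2 over FA1), 0 (FA3 over FA2), 1 (MS over MF) and 5 (MA over MS). With no minimum they were 8 (FS over MS), 8 (FA2 over FA1) and 2 (FA3 over FA2). At 4-fold they were 1 (FF over MF), 2 (FS over MS), 7 and 8 (FA2 and FA3 over MA), 7 (all 3), 0 (FA2 over FA1), 0 (FA3 over FA2) and 0 (MS over MF). With 5 CPM added FA3 over FA2 had 0. Without the 5 long members, chosen after seeing the data, counts were 1 (FF over MF), 2 (FS over MS) and 2 (FA2 over FA1).

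Median log2 ratios of the members moved as follows. With at least 100 reads: 0.11 (FF over MF), 0.78 (FS over MS), 3.10, 4.11 and 3.67 (FA1, FA2 and FA3 over MA), 4.10 (all 3), 0.31 (FS over FF), 0.74 (FA2 over FA1), -0.15 (MS over MF) and -2.48 (MA over MS). With no minimum: 0.79 (FS over MS), 1.80 and 1.94 (FA2 and FA3 over MA), 1.80 (all 3), -0.15 (MS over MF) and -1.72 (MA over MS). With TMM: 2.14 and 2.10 (FA1 and FA2 over MA), 2.09 (all 3), 0.044 (FA3 over FA2, -0.13 with the header total) and -1.90 (MA over MS). With DESeq2 size factors: 2.003, 2.03 and 1.86 (FA1, FA2 and FA3 over MA), 1.95 (all 3) and -1.70 (MA over MS). With 5 CPM added: 0.40 (FS over MS), 1.73, 2.03 and 1.83 (FA1, FA2 and FA3 over MA), 1.97 (all 3) and -1.90 (MA over MS). With 1 value per protein name: 2.95 and 2.78 (FA2 and FA3 over MA), 2.80 (all 3) and -2.46 (MA over MS). Without the 5 long members: 0.0028 (FF over MF), 0.39 (FS over MS) and 2.12 (FA1 over MA).

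Summed CPM in FF, FS, FA3, MF, MS and MA was 1023, 1220, 1291, 929, 728 and 228 with TMM. In FF, FS, MF, MS and MA it was 1046, 1192, 902, 695 and 252 with DESeq2 size factors. In FF, FS, FA1, FA2, FA3, MF, MS and MA it was 762, 839.6, 620.1, 815, 708, 585, 553 and 156 without L37, and 2359.5, 2652, 1944, 2594, 2179, 1919, 1567 and 386 over matches to any organism. Without the 5 long members it was 1033 in FF, 1241 in FS and 866 in FA1. In the edgeR adult sex term, chosen after seeing the data, TMM kept 2 of the 6 members, S9 and L32, and leaving out each library gave 0 to 7. For the difference between adult and larval sex effects it gave 0 to 6. Wherever leaving out a library gave no member in either of these terms, no other unigene passed either. The cause of these moves was not tested. In the 3 terms over all stages, 0 members passed under every alternative run.

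No paired analysis was possible because every group holds replicate number 1 alone. Depth limits the members of few reads: 6 members had 0 reads in MA, where that count allows up to 1.63 CPM, and single-library differences carry no biological error.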

Other observations

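Low-count ribosomal protein unigenes matched to ants, bees and wasps had most of their reads in FA2. The 54 such unigenes with under 100 reads in all had 55, 55, 79, 289 and 6 reads in FF, FS, FA1, FA2 and FA3, and 9, 51 and 13 in MF, MS and MA. All 54 had reads in FA2, 25 in FA1, 27 in MS and 12 in MA, against 4 each in FF, FA3 and MF and 6 in FS. They are not members, and they summed to 198 CPM in FA2 beside 1290.5 CPM for the members there.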
